A study of Mus musculus with 12 samples.

Results

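The genes described here are 38 named genes of G2 phase and mitosis, grouped by their known roles. Of the 38, 37 had a probe set that the array annotation assigns to that gene alone, and the brightest such probe set, by its mean over the 12 arrays, was used for each gene. Ccnb1, which encodes cyclin B1, was not analysed here. Another 7 genes were dim, averaging no more than the 40th percentile over all probe sets (5.14 as log2(signal + 16)), and 30 were tested among 12190 genes in all.

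Cells that divide build up these transcripts from late S phase through mitosis and lose them on leaving the cycle. Cyclin-dependent kinase with cyclins A and B drives entry into mitosis, Aurora and Polo-like kinases build the spindle, the spindle checkpoint holds anaphase back until chromosomes are attached, and Cdc20 then directs the anaphase-promoting complex to its targets. A resting follicular B cell lies in G0, and after its receptor is crosslinked it passes through a long G1 before it replicates its DNA. Transcripts of this group in a resting sample are therefore commonly used as a readout of cycling cells.

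Splenic follicular B cells of male 129SvEv mice aged 8 weeks were isolated by a gate of B220 positive, AA4.1 negative, CD23 high and CD21 intermediate. The mice were wild type or labelled Zfx cko, a conditional knockout of the zinc-finger transcription factor Zfx. The sources used here do not give the Cre driver or the deleted part of the gene. Anti-IgM, which stimulates B cells through their antigen receptor, was given at 10 µg/mL for 0, 2 or 12 h, making 6 groups (wild type and cko at 0, 2 and 12 h) of 2 arrays each. The sources used here do not say if the 2 arrays of a group hold RNA of separate mice, so the spread that p-values measure is that of these arrays and may be technical only.

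Promoters are shown for the 6 genes called in the most comparisons among those in the promoter table (Cdc20, Mad2l1, Ccnb2 and Ube2c tied at 6 comparisons, and Cdc20 was taken as the brightest), because the joint control of this group is known to run through short promoter elements. One is the CCAAT box, bound by NF-Y, and the other is the cell cycle genes homology region, bound by MuvB complexes, which reads TTTGAA in many genes and in some genes TTCGAA. Each line gives the 250 bases before the first listed start of the gene in RefSeq (GRCm38.p6), 5′ to 3′ on the gene's strand, with these motifs in capitals wherever they occur on either strand. From the other strand, CCAAT is seen as ATTGG, the first form of the homology region is seen as TTCAAA, and the second form is its own reverse complement.
Bub3, chr7:131560120-131560369, plus strand: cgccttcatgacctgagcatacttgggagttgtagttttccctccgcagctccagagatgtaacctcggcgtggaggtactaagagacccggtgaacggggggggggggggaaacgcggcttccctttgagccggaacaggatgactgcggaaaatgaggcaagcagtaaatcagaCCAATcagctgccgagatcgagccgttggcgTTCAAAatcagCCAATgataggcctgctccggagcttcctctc
Pttg1, chr11:43425982-43426231, minus strand: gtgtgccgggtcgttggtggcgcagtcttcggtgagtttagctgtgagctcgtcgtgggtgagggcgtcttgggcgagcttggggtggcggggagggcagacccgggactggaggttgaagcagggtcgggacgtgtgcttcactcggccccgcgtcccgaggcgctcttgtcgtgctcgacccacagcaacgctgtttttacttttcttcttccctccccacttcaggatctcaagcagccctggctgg
Cdc25b, chr2:131186698-131186947, plus strand: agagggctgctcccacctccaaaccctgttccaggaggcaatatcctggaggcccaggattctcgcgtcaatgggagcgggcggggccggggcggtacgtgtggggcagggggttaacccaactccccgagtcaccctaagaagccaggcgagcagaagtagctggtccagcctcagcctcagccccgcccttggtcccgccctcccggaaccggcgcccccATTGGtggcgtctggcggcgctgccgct
Mki67, chr7:135716380-135716629, minus strand: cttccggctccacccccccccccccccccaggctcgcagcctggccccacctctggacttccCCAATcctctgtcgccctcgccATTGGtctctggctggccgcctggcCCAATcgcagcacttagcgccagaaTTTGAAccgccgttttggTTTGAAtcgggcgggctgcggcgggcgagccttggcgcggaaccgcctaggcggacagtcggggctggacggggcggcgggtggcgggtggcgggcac
Top2a, chr11:99024190-99024439, minus strand: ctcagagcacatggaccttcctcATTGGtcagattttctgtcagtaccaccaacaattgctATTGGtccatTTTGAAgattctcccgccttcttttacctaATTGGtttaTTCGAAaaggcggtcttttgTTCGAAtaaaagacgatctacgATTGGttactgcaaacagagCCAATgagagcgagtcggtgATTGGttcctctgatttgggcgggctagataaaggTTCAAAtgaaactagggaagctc
Cdc20, chr4:118437344-118437593, minus strand: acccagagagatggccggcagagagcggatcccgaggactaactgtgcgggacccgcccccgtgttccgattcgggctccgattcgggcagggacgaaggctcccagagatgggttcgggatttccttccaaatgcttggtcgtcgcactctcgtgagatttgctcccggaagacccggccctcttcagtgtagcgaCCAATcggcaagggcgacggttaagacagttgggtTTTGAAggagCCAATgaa

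The Mki67 promoter holds CCAAT 3 times and TTTGAA 2 times, the latter 116 and 98 bases before the start. The Top2a promoter holds CCAAT 6 times, TTTGAA 2 times and TTCGAA 2 times. Bub3 and Cdc20 each hold 2 CCAAT matches on both sides of 1 TTTGAA match, Cdc25b holds 1 CCAAT match, and the Pttg1 window holds none of these letters. The windows of Pttg1 and Cdc25b lie wholly inside the annotated gene, before a listed start that is not the outermost one, so the sequence upstream of the outermost start is not shown for them. No matches overlapped in the 6 windows. Of the 31 listed genes matched in the promoter table, 22 (71%) held CCAAT, against 34.5% of 27025 promoters of the same length. TTTGAA was in 10 of 31 (32.3%, against 16.3%), TTCGAA in 2 of 31 (6.45%, against 1.34%), and CCAAT together with either of the last 2 in 10 of 31 (32.3%, against 6.21%). These are matches of letters, and no binding was measured.

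Across the series, the arrays shared a 2% trimmed mean of 250, with medians of 29.1 to 40.3. By their control probe sets the arrays fell into 2 sets of 6. The actin 5′ signal was 1.80 to 3.33% of the 3′ signal and the 18S ribosomal RNA signal was 6636 to 10892.5 on both resting groups and wild type at 12 h. On the 2 h arrays of both genotypes and on cko at 12 h the actin share was 8.41 to 19.1% and the 18S signal was 1022 to 1299. This is called the control-probe division below. The comparisons within it are 4 (wild type at 12 h against 0 h, cko at 12 h against 2 h and the genotypes at 0 h and at 2 h), the interaction at 2 h balances it, and the other comparisons cross it, so that there the division cannot be told apart from the groups. Groups on 1 side of it were not alike: the mean actin share was 3.30% in wild type and 1.89% in cko at 0 h, 2.19% in wild type at 12 h, 8.46% and 10.7% in wild type and cko at 2 h, and 19.01% in cko at 12 h. Follicular B cell markers were present on every array, with a summed signal of 21975 to 72781 over 6 genes. The brightest Zfx probe set read 982.5 to 1041 in wild type and 2189 to 2618 in cko at 0 h, and its place relative to the deleted part is not known here, so it does not check the labels.

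Markers of other cells were not the same in all groups. The summed signal of 5 erythroid genes was 1312 to 1421 on the wild-type 0 h arrays, 276.7 to 281.3 on the cko 0 h arrays and 101.7 to 441.9 on the other 8. That of 10 neutrophil and myeloid genes was 21583 to 22352 in wild type at 0 h, 9841 to 9916 in cko at 0 h, 16041 to 16120 in wild type at 2 h, 7828 to 8732 in wild type at 12 h and 2661 to 3824 on the cko arrays after stimulation. T and NK cell genes summed to 974.6 to 1135 at 0 h in both genotypes and to 287.1 to 453.3 later. Germinal centre genes summed to 1338 to 1511 in wild type and 1710 to 1744 in cko at 0 h, and to 580.2 to 878.7 later. Of the single markers, Itgam had group means of 1.11 to 11.6, Cd4 of 4.29 to 16.1 and Rag1 of 0.54 to 2.23, close to the bottom of the scale. Their part in the results below was not tested.

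**Figure D1:**
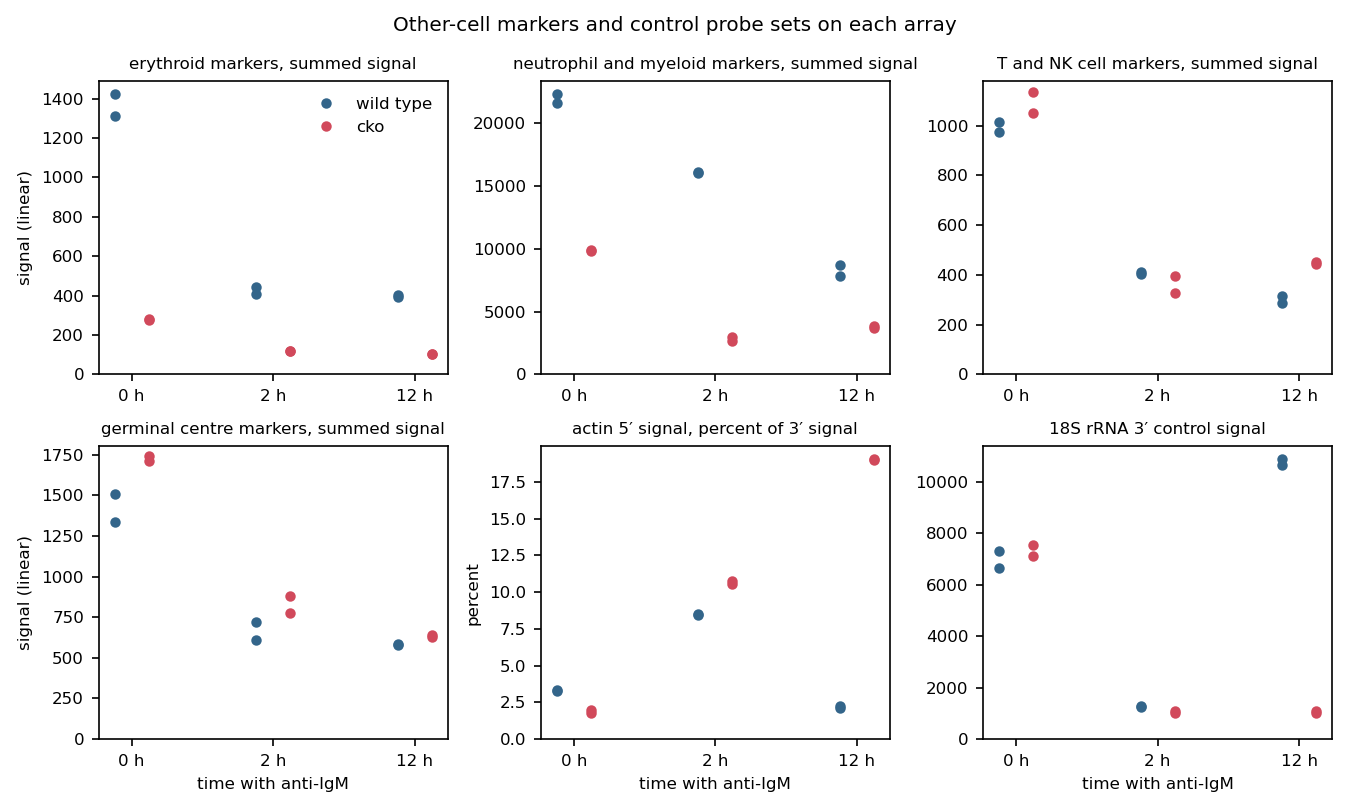
Summed signals of 4 lists of other-cell markers, the actin 5′ signal as a percent of the 3′ signal and the 18S ribosomal RNA signal, by time with anti-IgM, 1 point per array. The erythroid and myeloid sums were highest on the 2 wild-type 0 h arrays, and the actin share was 8.41% or more on the 2 h arrays of both genotypes and on cko at 12 h.

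The resting wild-type sample held the highest mean for most of these genes. Of the 30 tested, 17 (56.7%) had their highest group mean in wild type at 0 h, against 20.5% of all genes tested, and 0 had their lowest mean there. The cko 2 h group was lowest for 10 and the cko 12 h group for 9. The share of all genes lowest in each group was not computed, so the counts of lowest means have no background. Against cko at 0 h the median over all genes was -0.32 at 2 h and -0.20 at 12 h. The signals were low for most of the group. Pttg1 and Bub3 had a mean above 1000 over the 12 arrays, Cdc20, Cenpa, Mad2l1, Cdc25b and Top2a lay between 200 and 1000, and the other 23 tested genes lay below 200. Between 18 and 31 of the 37 genes read above their array's median.

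**Figure D2:**
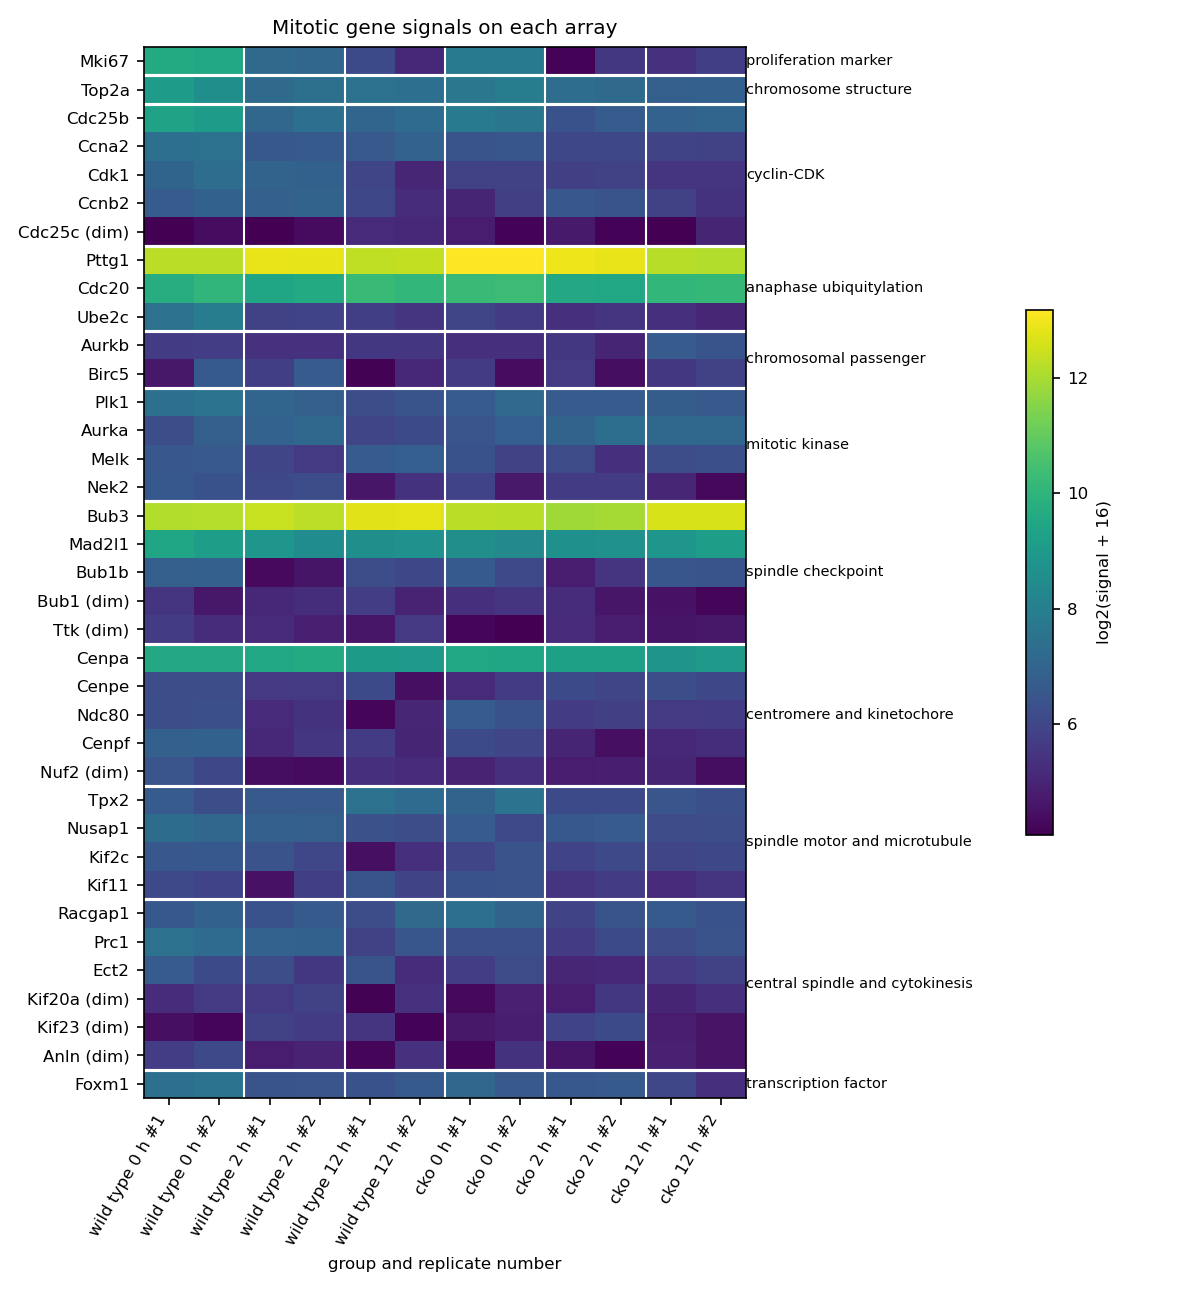
Signal of the 37 mitotic genes with a probe set (rows, by role, dim genes marked) on each of the 12 arrays (columns, by group), as log2(signal + 16). Pttg1 and Bub3 are bright on every array, and 17 of the 30 tested genes have their highest group mean in wild type at 0 h.

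Mki67 encodes Ki-67, the chromosome-coating protein used as the standard marker of cycling cells, and it spanned the widest range. Its signals were 791.1 and 731.6 in wild type at 0 h, 132.4 and 119.3 at 2 h and 53.4 and 18.9 at 12 h, and in cko they were 209.3 and 214.8, 1.77 and 31.2, and 25.6 and 38.4 at the same times. The resting wild-type arrays lay above all others, the resting cko arrays came next, and the genotypes overlapped at 12 h. Top2a, the topoisomerase that untangles chromosomes before they part, read 540.6 and 372.5, 131.1 and 157.0, and 166.7 and 152.3 in wild type, and 187.6 and 226.7, 144.9 and 132.3, and 98.5 and 101.2 in cko. It too was highest in wild type at 0 h, and the genotypes overlapped at 2 h. A dimmer Top2a probe set that passed the filter had means of 123.8 in wild type and 134.0 in cko at 0 h, with no such difference between the genotypes.

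Among the cyclins and their kinase, Cdk1, the kinase that drives mitosis, read 111.7 and 142.7, 110.7 and 103.6, and 47.4 and 17.2 in wild type at 0, 2 and 12 h, and 42.2 and 41.1, 39.6 and 41.0, and 28.8 and 26.9 in cko. It was below 50 on all 6 cko arrays and above 100 in wild type at 0 h and 2 h. Cdc25b, a phosphatase that activates Cdk1, read 619.4 and 532.7, 119.2 and 152.3, and 114.0 and 135.9 in wild type, and 208.0 and 183.7, 66.8 and 90.3, and 107.6 and 117.1 in cko. Its resting wild-type arrays stood apart from every other array, and the genotypes overlapped at 12 h. The mitotic cyclins Ccna2 and Ccnb2 had group means of 43.8 to 156.8 and 27.7 to 104.7. Ccna2 was highest in wild type at 0 h, whereas Ccnb2 was nearly level at 0 h and 2 h in wild type (96.3 ± 9.25 and 104.7 ± 4.51, SD, n = 2). Cdc25c was dim, with signals of 0.74 to 19.9.

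The genes of anaphase did not share one pattern. Ube2c, the ubiquitin-conjugating enzyme of the anaphase-promoting complex, read 163.6 and 219.8, 41.1 and 44.4, and 37.4 and 26.8 in wild type, and 46.8 and 35.1, 24.4 and 28.7, and 23.2 and 16.6 in cko. Only its resting wild-type arrays exceeded 50. Cdc20, the activator of the complex, read 843.6 and 1052, 690.7 and 784.4, and 1182 and 1084 in wild type, and 1156 and 1261, 740.0 and 709.4, and 1075 and 1111 in cko, lowest at 2 h in both genotypes. Its other passing probe set was not lowest at 2 h, with means of 119.4, 207.7 and 166.8 in wild type and 240.5, 260.8 and 405.4 in cko. At 12 h that probe set was called higher in cko (1.20). Pttg1, or securin, which holds back the protease that opens cohesin, read 4879 and 4779, 7509 and 7298, and 5024 and 5176 in wild type, and 9293 and 9253, 7866 and 7509, and 4728 and 4495 in cko. Its highest arrays were those of the resting cko. Its 2 dimmer probe sets had means of 73.9 to 475.8 and 66.7 to 462.9, highest in cko at 2 h, and went against the brightest one in several comparisons below.

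The mitotic kinases and the passenger complex had mean signals below 200. Plk1, the Polo-like kinase of spindle building, read 150.9 and 169.8, 116.3 and 96.2, and 61.4 and 70.7 in wild type, and 88.1 and 130.2, 86.8 and 88.5, and 92.9 and 81.1 in cko. Aurka, the Aurora kinase of the spindle poles, read 61.3 and 97.9, 106.2 and 120.7, and 46.6 and 53.7 in wild type, and 72.5 and 95.1, 109.0 and 150.2, and 123.8 and 124.0 in cko. For both, the lowest arrays were those of wild type at 12 h. The other kinases, Melk and Nek2, had group means of 40.2 to 91.8 and 9.96 to 72.7. Of the chromosomal passenger proteins, Aurkb had means of 23.4 to 35.2 in 5 groups and 78.7 ± 11.8 (SD, n = 2) in cko at 12 h, and Birc5, or survivin, had duplicates as far apart as 9.32 and 85.0 in wild type at 0 h. The other passing Aurkb probe set had means of 33.0, 17.7 and 33.3 in cko at 0, 2 and 12 h and was called in no comparison below.

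Of the spindle checkpoint, Bub3, which anchors the checkpoint at kinetochores, read 4468 and 4604, 5392 and 4942, and 7045 and 7246 in wild type, and 4785 and 4754, 3758 and 3987, and 6336 and 6404 in cko. It was highest at 12 h in both genotypes. Mad2l1, or Mad2, the inhibitor of Cdc20, read 684.2 and 543.2, 444.8 and 347.4, and 373.1 and 396.4 in wild type, and 367.7 and 313.8, 382.6 and 388.8, and 447.8 and 550.5 in cko, so its highest arrays were at rest in wild type and at 12 h in cko. Bub1b, or BubR1, had means of 98.2 ± 1.84 at 0 h, 5.79 ± 3.33 at 2 h and 54.4 ± 5.89 at 12 h in wild type and 67.5 ± 22.8, 20.03 ± 12.3 and 72.7 ± 1.95 in cko (SD, n = 2). The checkpoint kinases Bub1 and Ttk were dim, at 2.07 to 36.4 and 0.86 to 34.0.

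At the centromere, Cenpa, the histone variant that marks it, read 740.4 and 741.6, 726.6 and 778.6, and 510.9 and 501.2 in wild type, and 725.0 and 671.6, 599.2 and 589.4, and 424.5 and 491.6 in cko. In both genotypes its 12 h arrays lay below the earlier ones. The kinetochore genes Cenpf, Cenpe and Ndc80 had group means of 11.1 to 100.9, 26.8 to 57.8 and 9.59 to 78.0. Nuf2, the partner of Ndc80, was dim, yet its 2 resting wild-type arrays (71.6 and 49.6) lay above the other 10 (4.12 to 23.7).

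Tpx2, which activates Aurora A on spindle microtubules, read 85.8 and 60.9, 81.4 and 81.8, and 160.2 and 137.1 in wild type, and 109.8 and 169.2, 53.0 and 53.5, and 71.8 and 61.7 in cko. Its 4 probe sets did not move alike. A dimmer one that did not pass had means of 51.6 in wild type at 0 h and 6.04 to 19.2 in the other groups. The motors Kif11 and Kif2c and the spindle protein Nusap1 had group means of 22.4 to 66.7, 14.5 to 78.7 and 56.7 to 129.9. Of the central spindle and cytokinesis genes, Prc1, the microtubule bundler, had means of 149.3 ± 17.9 in wild type and 62.2 ± 0.63 in cko at 0 h (SD, n = 2). Racgap1 and Ect2, which switch on the contractile ring, had means of 57.8 to 131.0 and 17.4 to 70.0, and Kif20a, Kif23 and Anln were dim, at 1.54 to 54.0. Foxm1, the transcription factor that drives much of this group, read 152.3 and 171.5, 71.5 and 73.2, and 65.5 and 85.1 in wild type, and 119.7 and 80.9, 80.6 and 84.5, and 48.2 and 23.9 in cko.

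**Figure D3:**
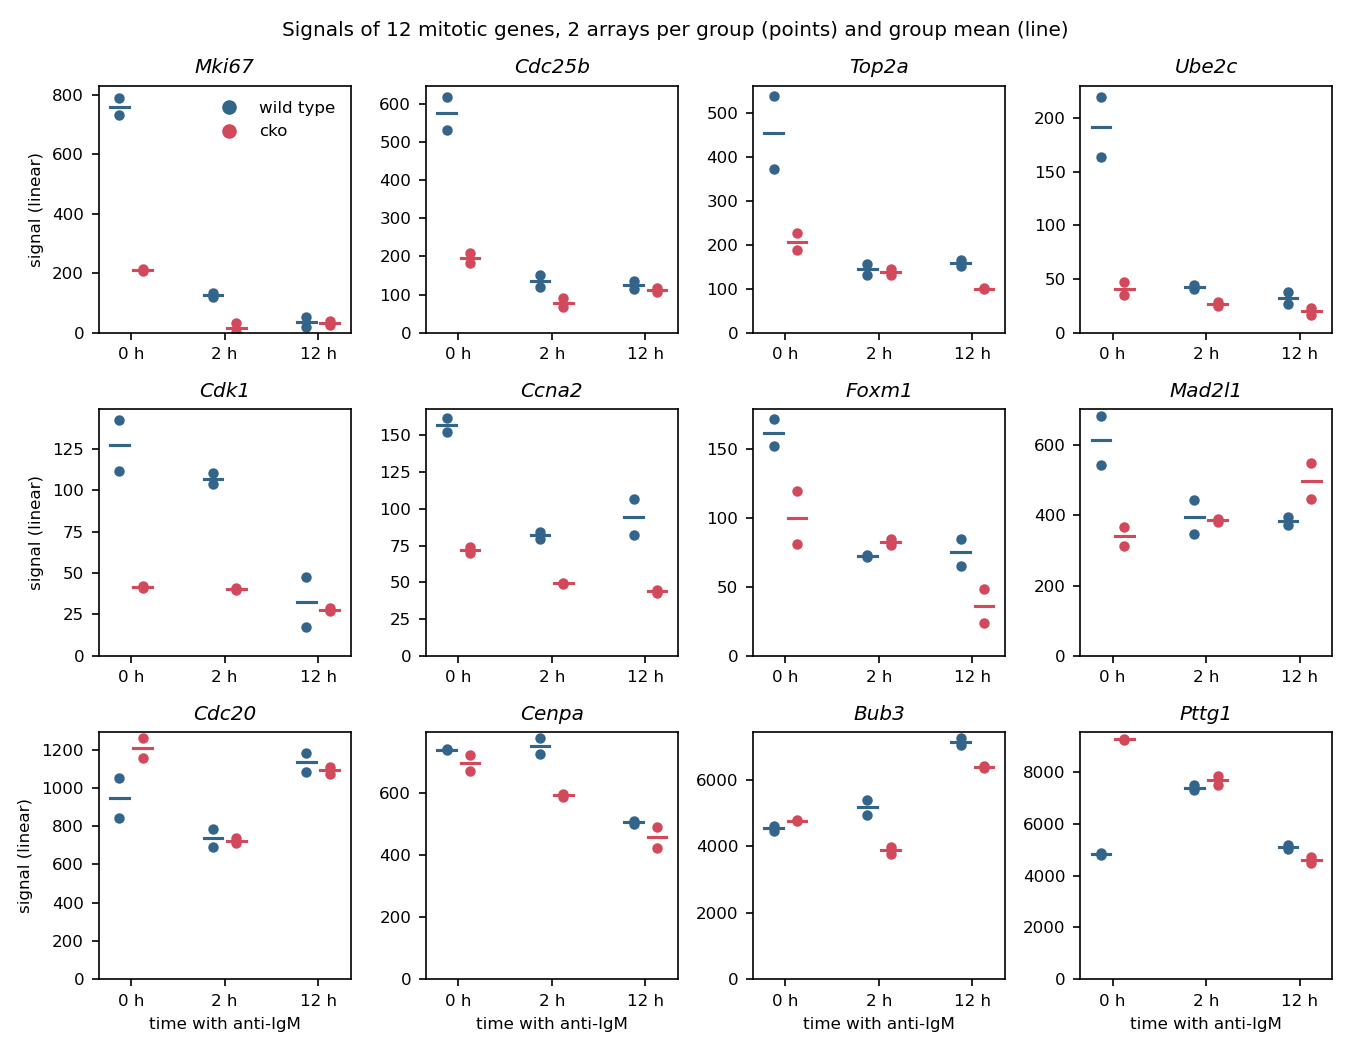
Linear signals of 12 mitotic genes by time with anti-IgM, with 1 point per array and a line at the mean of the 2 arrays of a group, wild type in blue and cko in red. The brightest probe set of each gene is shown. Mki67, Cdc25b, Top2a and Ube2c are highest in wild type at 0 h, Pttg1 is highest in cko at 0 h, and Bub3 is highest at 12 h in both genotypes.

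The comparison of wild-type cells at 12 h with those at 0 h asks what the group does in normal cells before a first division, and it lies within the control-probe division. Most tested members fell. Of 30, 17 fell (56.7%) and 2 rose at an adjusted p under 0.05, against 23.1% of the 12190 genes lower and 24.8% higher, 47.9% called in all. The median log2 difference was -0.92 in the group and 0.03 over all genes. In bulk RNA, fewer cells of a type and less RNA per cell cannot be told apart. Mki67 changed by -3.98 ± 0.39 (log2 difference ± SE, adjusted p = 1.03e-06, limma), Ube2c by -2.11 ± 0.27 (adjusted p = 1.59e-05) and Cdc25b by -2.07 ± 0.18 (adjusted p = 3.72e-07). These were followed by Kif2c (-1.70 ± 0.31, adjusted p = 0.000412), Ndc80 (-1.66 ± 0.32, adjusted p = 0.000548) and Cdk1 (-1.63 ± 0.29, adjusted p = 0.000339). Kif2c and Ndc80 at 12 h (means of 14.5 and 9.59) lay below the added 16, so the sizes and ranks of their falls depend on it. With pseudocounts of 1 and 64 Kif2c read -2.65 and -0.87, and Ndc80 -3.00 and -0.78. The other passing Kif2c probe sets read -0.42 and 0.058 and were not called. With 64 Top2a read -1.20. Cenpf, Nek2, Top2a, Prc1, Ccnb2, Plk1, Foxm1, Nusap1, Ccna2, Mad2l1 and Cenpa also fell. Bub3 (0.65 ± 0.06, adjusted p = 2.47e-07) and Tpx2 (0.89 ± 0.23, adjusted p = 0.0055) rose. By role, the falls included all 4 tested genes of the cyclin and Cdk1 group (Cdc25b among them), 3 of 4 centromere and kinetochore genes and 1 of 3 anaphase genes. Of the other-cell markers, 3 of 4 tested erythroid, 8 of 9 myeloid, 4 of 5 T and NK cell and 4 of 5 germinal centre genes fell as well, as did 5 of 6 follicular B cell markers, and their part in the result was not tested.

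Under every alternative setting and left-out array tried, 12 of these 19 calls held (Mki67, Top2a, Cdk1, Cdc25b, Ube2c, Plk1, Cenpa, Cenpf, Kif2c, Prc1, Nusap1 and Ndc80). The rise of Bub3 was not called as the mean of its probe sets (0.26), and the fall of Mad2l1 was not with the division term (-0.45). The fit with that term has 1 time effect for both genotypes and 1 genotype effect for all times. Its values, here and below, are therefore not those of a single genotype or a single time. Leaving out 1 array ended the calls of Ccna2 (-0.61 without wild-type 0 h replicate 2, -0.49 without wild-type 12 h replicate 1), Ccnb2 (-0.77 without wild-type 12 h replicate 2), Nek2 (-1.36 without wild-type 0 h replicate 1, -1.05 without wild-type 12 h replicate 1), Foxm1 (-0.81 without wild-type 12 h replicate 1) and Tpx2 (0.69 without wild-type 0 h replicate 2). The mean of their probe sets also ended the calls of Foxm1 (-0.76) and Tpx2 (0.44), and the division term that of Tpx2 (0.57).

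The comparison of cko with wild type at 0 h asks whether the group already differed at rest. It lies within the division, although the actin share (mean ± SD of 2 arrays) was 3.30 ± 0.044% for wild type against 1.89 ± 0.14% for cko, a difference whose part in the result was not tested. Of the 30 genes, 11 were lower in cko (36.7%) and 3 higher, against 16% and 16.3% of all genes, 32.3% called in all. The median was -0.57 in the group and 0.02 over all genes. The log2 difference was -1.86 ± 0.27 for Ube2c (adjusted p = 0.000159), and those of other lower genes were Mki67 at -1.77 ± 0.39 (adjusted p = 0.00332), Cdc25b at -1.48 ± 0.18 (adjusted p = 4.35e-05), Ccnb2 at -1.41 ± 0.32 (adjusted p = 0.0044) and Cdk1 at -1.30 ± 0.29 (adjusted p = 0.00392). Nek2 was lower at -1.18 ± 0.42 (adjusted p = 0.0452), and Prc1, Top2a, Ccna2, Mad2l1 and Nusap1 were lower too. With pseudocounts of 1 and 64 Ube2c read -2.20 and -1.28, Ccnb2 -1.88 and -0.82, and Cdk1 -1.58 and -0.85. Nek2 read -1.76 and -0.62 and Mki67 -1.84 and -1.58, so the sizes and ranks depend on the added 16. Securin, Pttg1, was higher by 0.94 ± 0.05 (adjusted p = 6.68e-08), Tpx2 by 0.79 ± 0.23 (adjusted p = 0.0192) and Cdc20 by 0.35 ± 0.11 (adjusted p = 0.0205). Kinetochore genes gave 0 calls among 4 tested, with Cenpf at -0.82 (adjusted p = 0.0733). In the same comparison 3 of 4 tested erythroid and 6 of 9 myeloid markers were lower in cko, 0 of 5 T and NK cell markers were lower and 1 was higher, and 5 of 6 follicular B cell markers were higher. Their part in the result was not tested.

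Of these 14 calls, 7 held under every alternative and left-out array (Ccna2, Ccnb2, Cdk1, Cdc25b, Ube2c, Prc1 and Pttg1), and Mki67 was lost only with a pseudocount of 1 (-1.84). The fit with the division term gives 1 genotype effect for all times, so its values are not those of 0 h alone. In it the calls of Top2a (-0.56), Mad2l1 (-0.42), Nek2 (-0.82), Nusap1 (-0.50), Tpx2 (0.15) and Cdc20 (0.17) ended. Tpx2 read 0.22 as the mean of its probe sets. Without single arrays the calls of Nek2 (-0.58 to -1.28 without either wild-type array or cko replicate 2), Nusap1 (-0.67 without wild-type replicate 1, -0.47 without cko replicate 2), Cdc20 (0.20 without wild-type replicate 1, 0.29 without cko replicate 2) and Tpx2 (0.58 without wild-type replicate 2, 0.51 without cko replicate 2) ended.

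**Figure D4:**
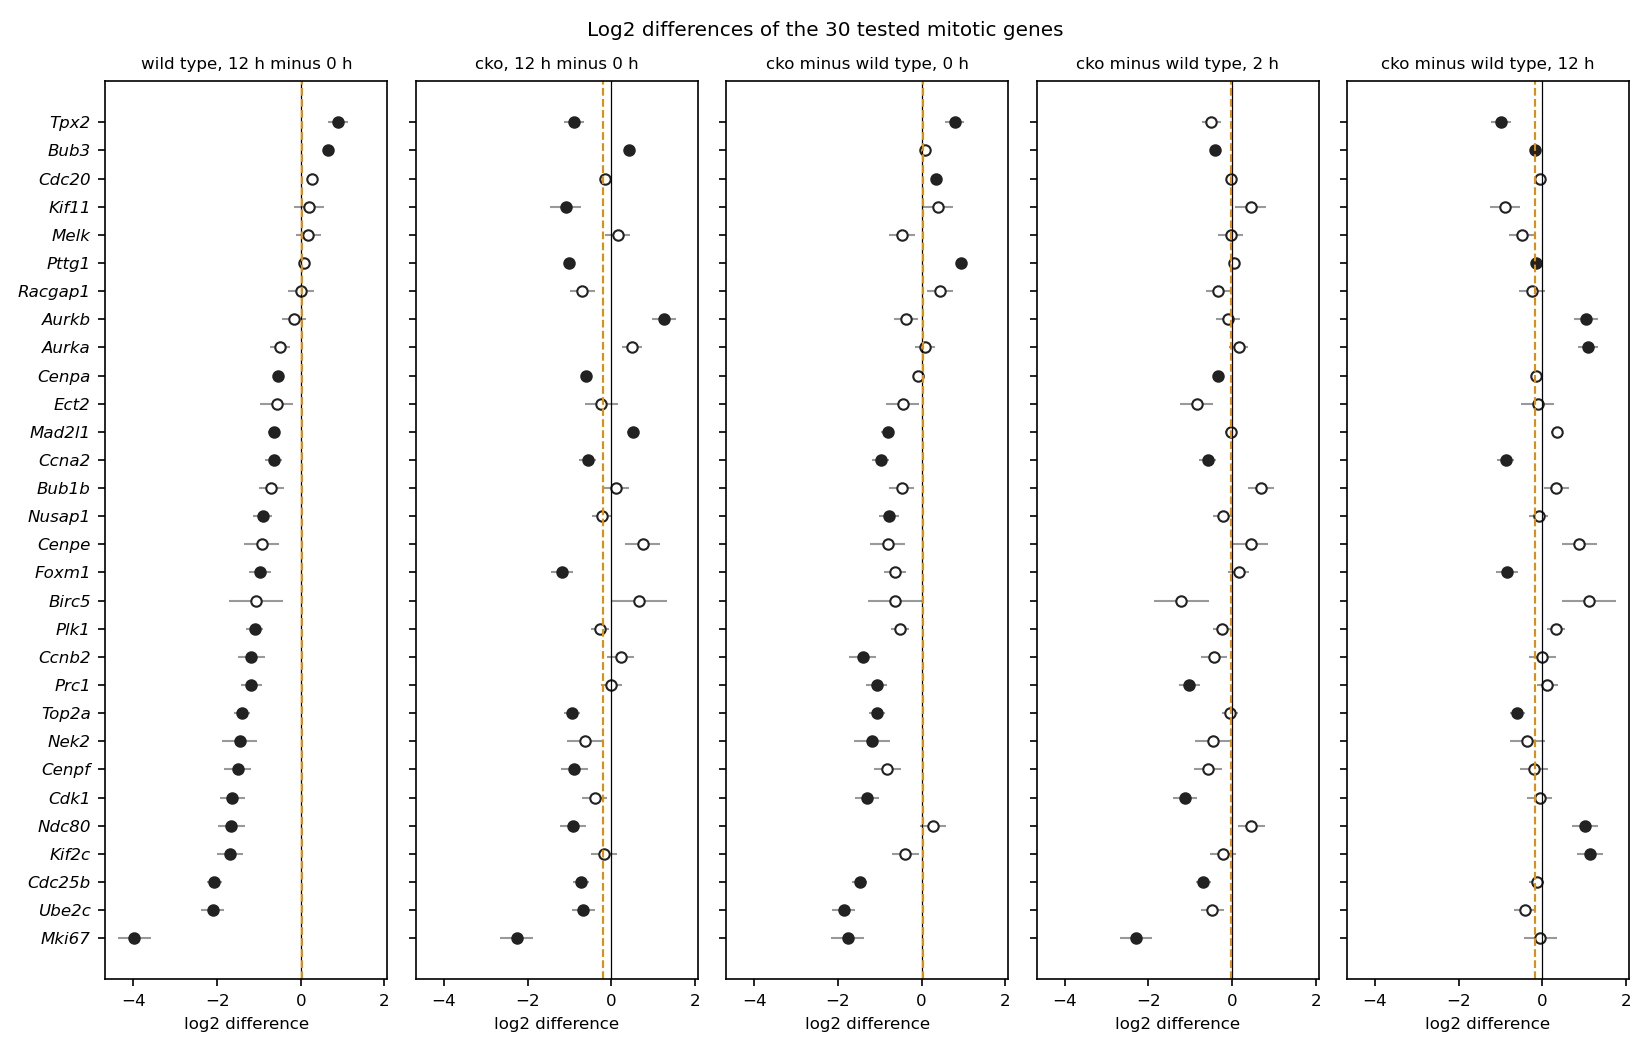
Log2 differences of the 30 tested mitotic genes in 5 comparisons (points) with standard errors (bars), filled where called at an adjusted p under 0.05, with the median of all genes tested as a dashed line. In wild type at 12 h the median of the group is -0.92, and in cko against wild type at 0 h it is -0.57, with Pttg1 (0.94), Tpx2 and Cdc20 on the other side.

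At 2 h in wild type, 13 of the 30 genes fell (43.3%) and 2 rose, against 36.2% and 23.5% of all genes, 59.7% called in all. The group's median was -0.47 and that of all genes -0.24. The largest falls were Mki67 (-2.45 ± 0.39, adjusted p = 7.19e-05), Bub1b (-2.40 ± 0.30, adjusted p = 8.86e-06), Cdc25b (-1.97 ± 0.18, adjusted p = 3.53e-07), Ube2c (-1.81 ± 0.27, adjusted p = 4.17e-05), Cenpf (-1.56 ± 0.33, adjusted p = 0.000856) and Top2a (-1.54 ± 0.18, adjusted p = 4.74e-06). Bub1b signals at 2 h lay below the added 16, which sets the size of its difference: it read -3.96 with a pseudocount of 1 and -1.22 with 64. Pttg1 rose by 0.61 ± 0.05 (adjusted p = 8.38e-08), and Bub3 was called higher by 0.19 ± 0.06 (adjusted p = 0.00997) but read -0.062 with a term for the control-probe division and was not called without wild-type 0 h replicate 1 (0.16) or wild-type 2 h replicate 1 (0.12). Cdk1 (-0.21, adjusted p = 0.564) and Ccnb2 (0.11, adjusted p = 0.8) did not pass. The calls of Mki67, Cdc25b, Ube2c, Bub1b, Mad2l1, Cenpf and Pttg1 held under every alternative, and that of Top2a was lost with the division term (-0.99). The Cdc20 call (-0.35) was opposed by its dimmer probe set and ended without wild-type 0 h replicate 2 (-0.19) or wild-type 2 h replicate 1 (-0.26). Those of Ndc80 (-0.88 without wild-type 2 h replicate 1, -1.001 without wild-type 0 h replicate 2), Melk (-0.59 to -0.81 without wild-type 0 h replicate 1, 0 h replicate 2 or 2 h replicate 2) and Plk1 (-0.41 to -0.65 without any of the 4) rest on single arrays too.

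From 2 h to 12 h in wild type, 11 genes fell and 6 rose, against 22% and 35.3% of all genes, 57.3% called in all. Birc5 (-1.63 ± 0.65, adjusted p = 0.0459), Mki67 (-1.53 ± 0.39, adjusted p = 0.00376), Cdk1 (-1.42 ± 0.29, adjusted p = 0.000782), Kif2c (-1.34 ± 0.31, adjusted p = 0.00202), Ccnb2 (-1.29 ± 0.32, adjusted p = 0.00336) and Nek2 (-1.13 ± 0.42, adjusted p = 0.0337) fell the most. Birc5 and Kif2c at 12 h (means of 9.50 and 14.5) lay below the added 16. With pseudocounts of 1 and 64 Birc5 read -3.18 and -0.76, and Kif2c -2.21 and -0.65. As the mean of its probe sets Kif2c (-0.31) was not called. Bub1b (1.70 ± 0.30, adjusted p = 0.000252), Kif11 (1.04 ± 0.37, adjusted p = 0.0263), Melk (0.95 ± 0.30, adjusted p = 0.015), Tpx2 (0.75 ± 0.23, adjusted p = 0.0129), Cdc20 (0.61 ± 0.11, adjusted p = 0.000182) and Bub3 (0.47 ± 0.06, adjusted p = 5.29e-06) rose. This comparison crosses the division, and only the calls of Bub1b, Cenpa and Pttg1 held under every alternative. With the division term Mki67 read 0.59, Birc5 0.55, Kif2c 0.061, Kif11 -0.28 and Tpx2 -0.065, and the mean of its probe sets turned Bub3 to -0.50. The calls of Mki67 (-1.03 without wild-type 12 h replicate 2), Birc5 (-1.16 without wild-type 2 h replicate 2, -1.14 without 12 h replicate 1), Kif11 (0.42 without 2 h replicate 1, 0.79 without 12 h replicate 1), Melk (0.77 without 2 h replicate 2, 0.92 without 12 h replicate 2) and Tpx2 (0.75 without 2 h replicate 1, 0.65 without 12 h replicate 1) ended without 1 array. So did those of Plk1 (-0.45 without 2 h replicate 1, -0.49 without 12 h replicate 1), and of Nek2 (-0.72 to -1.20) and Prc1 (-0.40 to -0.75) without 2 h replicate 1, 2 h replicate 2 or 12 h replicate 1.

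In cko cells at 2 h, 11 genes fell (36.7%) and 1 rose, against 39.2% and 23.8% of all genes, 63% called in all, and the median was -0.32 both in the group and over all genes. Mki67 (-2.98 ± 0.39, adjusted p = 1.01e-05), Cenpf (-1.31 ± 0.33, adjusted p = 0.00295), Bub1b (-1.23 ± 0.30, adjusted p = 0.00277), Cdc25b (-1.17 ± 0.18, adjusted p = 5.83e-05), Tpx2 (-1.14 ± 0.23, adjusted p = 0.000611) and Racgap1 (-0.996 ± 0.31, adjusted p = 0.012) fell the most. Signals of Mki67 and Cenpf in cko at 2 h lay near the added 16, so these sizes depend on it: with pseudocounts of 1 and 64 Mki67 read -4.49 and -1.80, and Cenpf -2.23 and -0.61. Ccnb2 was called higher (1.09 ± 0.32, adjusted p = 0.00906). It was not called without cko 0 h replicate 1 (0.71), and with the division term it read -0.32 and Tpx2 0.64. The fall of Racgap1 was lost without cko 0 h replicate 1 (-0.77) or cko 2 h replicate 1 (-0.76), that of Top2a without cko 0 h replicate 2 (-0.40) or cko 2 h replicate 2 (-0.47), and that of Ndc80 without cko 0 h replicate 1 (-0.64) or either 2 h array (-0.73 and -0.88). Pttg1 was called lower (-0.27) but read 0.014 after median scaling, and both of its dimmer probe sets were called higher (0.97 and 2.17). The calls of Mki67, Cdc25b, Bub1b and Cenpf held under every alternative.

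In cko cells at 12 h against 0 h, 12 genes fell (40%) and 3 rose, against 33.1% and 25.9% of all genes, 58.9% called in all, with medians of -0.33 and -0.20. Mki67 (-2.26 ± 0.39, adjusted p = 0.000167), Foxm1 (-1.18 ± 0.26, adjusted p = 0.00128), Kif11 (-1.09 ± 0.37, adjusted p = 0.0205), Pttg1 (-1.01 ± 0.05, adjusted p = 5.52e-10), Top2a (-0.94 ± 0.18, adjusted p = 0.000522) and Ndc80 (-0.91 ± 0.32, adjusted p = 0.0236) fell the most. Aurkb (1.25 ± 0.29, adjusted p = 0.00175), Mad2l1 (0.53 ± 0.15, adjusted p = 0.00746) and Bub3 (0.42 ± 0.06, adjusted p = 1.61e-05) rose. The calls of Mki67, Top2a, Bub3 and Cenpa held under every alternative, Pttg1 read -0.14 and Aurkb -0.084 with the division term. The other passing probe set of Aurkb read 0.059 and was not called. A dimmer Pttg1 probe set was called higher (1.34), and another was called lower (-1.11). Without single arrays the calls ended for Kif11 (-0.951 to -1.11 without cko 0 h replicate 1, 0 h replicate 2 or 12 h replicate 1), Ndc80 (-0.73 to -0.92 without 0 h replicate 1 or either 12 h array), Mad2l1 (0.42 without 0 h replicate 2, 0.38 without 12 h replicate 2) and Tpx2 (-0.61 without 0 h replicate 2). Those of Ccna2 (-0.52 to -0.60), Ube2c (-0.51 to -0.81) and Cenpf (-0.78 to -0.98) ended without any of the 4 arrays.

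From 2 h to 12 h in cko, a comparison within the division, 4 genes fell and 4 rose, against 18.7% and 30.2% of all genes, 49% called in all, and the group's share was 26.7%. Foxm1 (-0.96 ± 0.26, adjusted p = 0.00674), Ccnb2 (-0.86 ± 0.32, adjusted p = 0.0402), Pttg1 (-0.74 ± 0.05, adjusted p = 2.92e-08) and Cenpa (-0.37 ± 0.09, adjusted p = 0.00496) fell. Bub1b (1.34 ± 0.30, adjusted p = 0.00209), Aurkb (1.28 ± 0.29, adjusted p = 0.00185), Bub3 (0.72 ± 0.06, adjusted p = 1.16e-07) and Cdc20 (0.58 ± 0.11, adjusted p = 0.000359) rose. The calls of Foxm1 (-0.62 without cko 12 h replicate 2), Ccnb2 (-0.64 without the same array, -0.81 and -0.91 without the 2 h arrays) and Cenpa (-0.27 without cko 12 h replicate 1) rest on single arrays, and the mean of its probe sets turned Bub3 to -0.10.

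The genotypes at 2 h again lie within the division. Of the 30 genes, 7 were lower in cko (23.3%) and 0 higher, against 15.7% and 12.8% of all genes, 28.5% called in all, with medians of -0.28 and -0.02. Of the genes with a positive difference, Bub1b (0.69) had the smallest adjusted p (0.111). The lower genes were Mki67 at -2.29 ± 0.39 (adjusted p = 0.00062), Cdk1 at -1.13 ± 0.29 (adjusted p = 0.0105), Prc1 at -1.02 ± 0.25 (adjusted p = 0.00805), Cdc25b at -0.68 ± 0.18 (adjusted p = 0.0124), Ccna2 at -0.58 ± 0.20 (adjusted p = 0.0486) and Bub3 at -0.41 ± 0.06 (adjusted p = 0.000104), and Cenpa was lower too. Mki67 in cko (1.77 and 31.2) lay near the added 16, and its difference read -3.74 with a pseudocount of 1 and -1.26 with 64. The myeloid markers were lower in cko here too (7 of 9), and 2 of 4 erythroid markers were. Their part was not tested. Only the Mki67 call held under every alternative, and without wild-type 2 h replicate 2 the count was 4 and without cko 2 h replicate 1 it was 3. The calls of Cdk1 (-1.09 without wild-type 2 h replicate 1, -1.11 without cko 2 h replicate 1), Cdc25b (-0.53 without wild-type replicate 2, -0.50 without cko replicate 1), Prc1 (-0.82 without cko replicate 1), Cenpa (-0.28 to -0.34 without wild-type replicate 2 or either cko array) and Ccna2 (-0.54 to -0.61 without any of the 4) ended.

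At 12 h the genotype comparison crosses the division. Of the 30 genes, 6 were lower in cko (20%) and 4 higher, against 29.9% and 21.4% of all genes, 51.3% called in all. Tpx2 (-0.99 ± 0.23, adjusted p = 0.00251), Ccna2 (-0.88 ± 0.20, adjusted p = 0.00232), Foxm1 (-0.84 ± 0.26, adjusted p = 0.0142) and Top2a (-0.60 ± 0.18, adjusted p = 0.0143) were lower. Bub3 (-0.17 ± 0.06, adjusted p = 0.0228) was called lower but read 0.072 after quantile normalization and 0.051 after median scaling, and Pttg1 (-0.15 ± 0.05, adjusted p = 0.0252) was called lower but read 0.072 after median scaling. Kif2c (1.14 ± 0.31, adjusted p = 0.00695), Aurka (1.08 ± 0.24, adjusted p = 0.00151), Aurkb (1.03 ± 0.29, adjusted p = 0.00764) and Ndc80 (1.02 ± 0.32, adjusted p = 0.0147) were higher. Kif2c and Ndc80 lay below the added 16 in wild type. With pseudocounts of 1 and 64 Kif2c read 1.96 and 0.53, and Ndc80 2.16 and 0.42. Only the Ccna2 call held under every alternative. The fit with the division term gives the same genotype effect at each time. In it Tpx2 read 0.15, Kif2c -0.30, Aurkb -0.23, Aurka 0.12, Ndc80 0.37 and Foxm1 -0.24. As the mean of their probe sets Aurka (0.47), Kif2c (0.37), Tpx2 (-0.47) and Foxm1 (-0.38) were not called. The other passing probe sets of Aurka (-0.15) and Aurkb (0.37) were not called either. A dimmer passing probe set of Pttg1 was called the other way, higher in cko (1.70), and another was not called (0.39). Mki67 (-0.049, adjusted p = 0.927), Cdk1 (-0.066, adjusted p = 0.871) and Ccnb2 (adjusted p = 0.999), all lower in cko at rest, did not pass at 12 h. Without cko 12 h replicate 2 the count was 6, and the calls of Foxm1 (-0.50), Bub3 (-0.17), Pttg1 (-0.11) and Ndc80 (1.003) ended. Without cko replicate 1 those of Aurkb (0.91), Top2a (-0.58), Bub3 (-0.16) and Ndc80 (1.04) did. Without wild-type replicate 1 those of Kif2c (0.71), Ndc80 (0.60) and Top2a (-0.54) did, and without wild-type replicate 2 those of Foxm1 (-0.69), Bub3 (-0.15) and Pttg1 (-0.12).

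The interaction asks whether the response to anti-IgM differed between the genotypes, as the cko response minus the wild-type response. At 2 h, 4 of the 30 genes had a positive and 3 a negative interaction, against 8.59% and 11.8% of all genes, 20.4% called in all. Ube2c (1.40 ± 0.38, adjusted p = 0.0194), Top2a (1.02 ± 0.26, adjusted p = 0.0139), Cdc25b (0.80 ± 0.26, adjusted p = 0.0439) and Mad2l1 (0.79 ± 0.21, adjusted p = 0.0175) were positive. The interaction holds the resting difference between the genotypes with its sign turned, so a gene lower in cko at rest tends to a positive value by construction. Tpx2 (-1.28 ± 0.33, adjusted p = 0.014), Pttg1 (-0.89 ± 0.07, adjusted p = 3.29e-06) and Bub3 (-0.49 ± 0.08, adjusted p = 0.000731) were negative. None of these 7 calls held under every alternative and left-out array. The count was 4 without wild-type 0 h replicate 1, wild-type 2 h replicate 1 or cko 2 h replicate 2, and 3 without cko 0 h replicate 2. Pttg1 and Bub3 kept their calls without each array and lost them only as the mean of their probe sets (-0.10 and -0.17). As the mean of their probe sets Top2a (0.23) and Tpx2 (-0.53) were not called either. Without single arrays that ended the call, Ube2c read 1.20 to 1.36, Top2a 0.76 to 0.90, Cdc25b 0.62 to 0.90, Mad2l1 0.62 to 0.78 and Tpx2 -1.004 to -1.08.

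At 12 h, 12 genes (40%) had a positive and 4 a negative interaction, against 18.8% and 24.4% of all genes, 43.2% called in all, and the median was 0.78 in the group and -0.17 over all genes. This contrast crosses the division and shares the resting arrays with the comparisons above. Like that at 2 h, it holds the resting difference with its sign turned. Mki67, Ccnb2 and Cdk1 differed between the genotypes by -1.77, -1.41 and -1.30 at rest and by -0.049, -0.0003 and -0.066 at 12 h. Kif2c and Aurkb differed by -0.38 and -0.37 at rest, not called, and by 1.14 and 1.03 at 12 h. Mki67 (1.72 ± 0.55, adjusted p = 0.021), Cenpe (1.69 ± 0.60, adjusted p = 0.0345), Kif2c (1.53 ± 0.44, adjusted p = 0.0123), Ube2c (1.44 ± 0.38, adjusted p = 0.00729), Ccnb2 (1.41 ± 0.46, adjusted p = 0.0225) and Aurkb (1.40 ± 0.40, adjusted p = 0.0123) were the largest positive values. These ranks depend on the added 16. With pseudocounts of 1 and 64 Cenpe read 2.70 and 0.83, Kif2c 2.44 and 0.77, and Aurkb 1.91 and 0.78. With 64 Cdc25b read 1.20 and Mad2l1 1.06. Tpx2 (-1.78 ± 0.33, adjusted p = 0.000555), Pttg1 (-1.08 ± 0.07, adjusted p = 4.96e-08), Cdc20 (-0.40 ± 0.15, adjusted p = 0.0427) and Bub3 (-0.24 ± 0.08, adjusted p = 0.0253) were negative, the last reading 0.090 after quantile normalization and 0.056 after median scaling. The calls of Cdc25b, Ube2c and Mad2l1 held under every alternative. The count was 10 without cko 0 h replicate 1 and 8 without cko 12 h replicate 1 or replicate 2. Kif2c, Tpx2 and Pttg1 lost their calls only as the mean of their probe sets (0.63, -0.69 and 0.11). Dimmer passing probe sets of Aurka (-1.17) and Pttg1 (1.36) were called in the direction opposite to the brightest ones. Without wild-type 12 h replicate 2 the calls of Mki67 (1.23), Cenpe (0.86), Ccnb2 (0.998) and Cdk1 (0.77) ended, and without cko 12 h replicate 1 that of Aurkb (1.28) did. The calls of Mki67, Cenpe, Ccnb2, Cdk1, Cdc20, Aurka, Plk1, Bub3 and Prc1 each also ended without at least 1 other array.

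**Figure D5:**
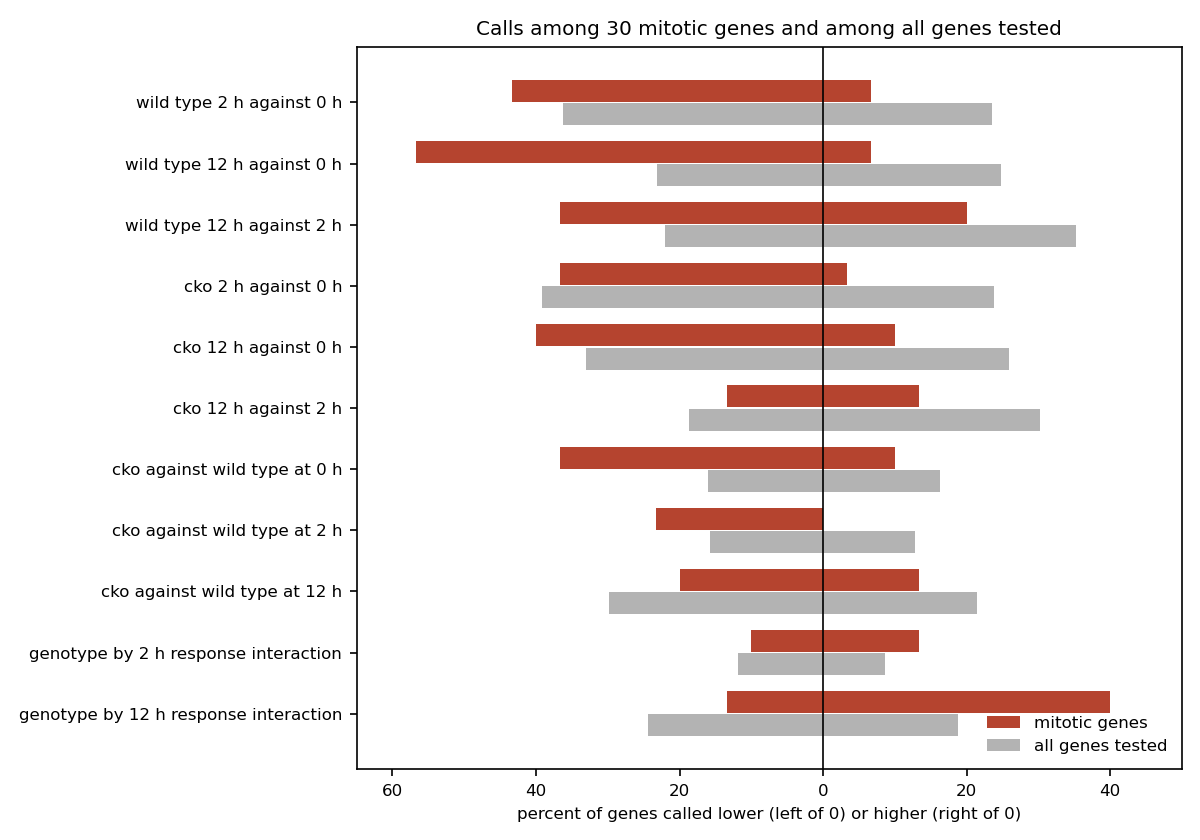
Percent of the 30 tested mitotic genes (red) and of all 12190 genes (grey) called lower (left of 0) or higher (right of 0) at an adjusted p under 0.05 in 11 comparisons. In wild type at 12 h against 0 h the lower share is 56.7% against 23.1%, and in cko at 2 h against 0 h it is 36.7% against 39.2%.

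Other genes of the pathway were read against the same background, which was 23.1% lower and 24.8% higher in wild type at 12 h and 16% lower and 16.3% higher for cko against wild type at 0 h. Of 55 tested mitotic genes outside the group, 12 fell (21.8%) and 10 rose in wild type at 12 h against 0 h, a share of falls near that of all genes. The smallest p-values were those of the Cdk subunits Cks1b (1.63 ± 0.07, adjusted p = 1.78e-10) and Cks2 (0.49 ± 0.06, adjusted p = 1.24e-05), the centromere gene Cenpq (0.91 ± 0.09, adjusted p = 2.16e-06) and the condensin gene Smc4 (-0.76 ± 0.07, adjusted p = 5.3e-07). In cko against wild type at 0 h, 8 of the 55 were lower (14.5%) and 9 higher, also near the background.

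Of 17 genes of the anaphase-promoting complex, 7 rose and 1 fell (5.88%, against 23.1% of all genes) in wild type at 12 h, with Anapc16 at 1.05 ± 0.07 (adjusted p = 1.39e-08) and Anapc5 at 0.62 ± 0.06 (adjusted p = 1.92e-06). At rest 7 were higher and 5 lower in cko (29.4%, against 16%), among them Cdc27 (-1.31 ± 0.13, adjusted p = 8.36e-06). Of 18 entry and exit switches, 9 rose and 3 fell (16.7%, against 23.1%) in wild type at 12 h, led by the kinase inhibitor Cdkn1a (4.13 ± 0.14, adjusted p = 4.53e-11) and the phosphatase scaffold Ppp2r1a (0.86 ± 0.05, adjusted p = 1.06e-08). At rest 7 were higher and 1 lower in cko (5.56%, against 16%).

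Of 23 regulators of the DREAM, MuvB, E2F and MYB families, 8 fell (34.8%, against 23.1% of all genes) and 5 rose in wild type at 12 h, with E2f8 at -2.65 ± 0.34 (adjusted p = 1.53e-05), the MuvB subunit Lin54 at -1.15 ± 0.16 (adjusted p = 4.76e-05) and Myb at 0.79 ± 0.12 (adjusted p = 7.4e-05). At rest 6 were lower (26.1%, against 16%) and 2 higher in cko, Nfya among the lower (-0.86 ± 0.15, adjusted p = 0.000605). Of 29 replication and S-phase genes, 7 rose and 4 fell (13.8%, against 23.1%) in wild type at 12 h, with Pcna at 1.15 ± 0.06 (adjusted p = 2e-09) and Rrm2 at -2.22 ± 0.13 (adjusted p = 4.25e-09). At rest 5 were lower (17.2%, against 16%) and 4 higher in cko, with Rrm2, a subunit of ribonucleotide reductase, at -1.58 ± 0.13 (adjusted p = 1.32e-06).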

How the data were processed

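RNA of 12 samples was amplified in 2 rounds from 100 ng, and 10 µg was put on each whole-genome mouse array, per the labels' protocols. Each probe set has 1 deposited value, a signal intensity on a linear scale, which the authors made with GCOS 1.4, per the submitters' processing notes. The sources used here do not say how probes were summarised. From these, log2(signal + 16) was computed with no further normalization. Of 45101 probe sets, 64 controls, 9160 without a symbol and 932 with several were left out, and symbols were updated by Entrez identifier (99.4% matched).

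Groups of 2 arrays were compared by fitting all 12 arrays at once, 1 mean for each group, in limma 3.58.1 (R 4.3.3), with eBayes with an intensity trend and two-sided p adjusted by Benjamini-Hochberg over 12190 genes, in 11 comparisons. A gene is called, and said to have risen or fallen, at an adjusted p under 0.05. The number of arrays limits the precision.

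The members, lists and tests were chosen with earlier results of these data known. By the naming rule, called genes with the largest differences are given, at most 6 in each direction, values on every array for the 12 brightest members and for Mki67, Cdk1, Ube2c, Foxm1 and Cdc20, and at most 4 genes of another list. Alternatives were pseudocounts of 1 and 64, median scaling, quantile normalization, a 60th-percentile filter or none, no trend in eBayes, only the groups compared, a replicate block, probe sets averaged by gene, a control-probe division term and each array left out. On simulated data (cko against wild type at 2 h, 12190 genes) 28% of log2 steps of 0.5, 56% of 1 and 94% of 2 were recovered, with 5 false calls. The simulated noise was normal and independent between arrays, few genes were changed, and no control-probe division was built in. These rates therefore need not hold for the real arrays.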

Additional observations from a re-analysis of the deposited data

Results flagged for a closer look

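By the test of the interaction (limma, adjusted p under 0.05, cko response minus wild-type response), 7 of 30 mitotic genes were called at 2 h (23.3%, against 20.4% of all genes). At 12 h 16 were called (53.3%, against 43.2%). The interaction holds the resting difference between the genotypes with its sign turned, so it does not separate the response from where the genotypes began. At 2 h the differences were 1.40 for Ube2c, 1.02 for Top2a, 0.80 for Cdc25b, 0.79 for Mad2l1, -0.49 for Bub3, -0.89 for Pttg1 and -1.28 for Tpx2. The 2 h interaction balances the control-probe division, and none of its 7 calls held under every alternative and left-out array.

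At 12 h the positive differences were 1.72 for Mki67, 1.69 for Cenpe, 1.53 for Kif2c, 1.44 for Ube2c, 1.41 for Ccnb2, 1.40 for Aurkb, 1.35 for Cdc25b, 1.24 for Cdk1, 1.19 for Prc1, 1.17 for Mad2l1, 1.002 for Aurka and 0.84 for Plk1. The negative ones were -0.24 for Bub3, -0.40 for Cdc20, -1.08 for Pttg1 and -1.78 for Tpx2. With a pseudocount of 64 Cenpe read 0.83 and Cdc25b 1.20, so the order depends on the added 16. Dimmer passing probe sets of Aurka (-1.17) and Pttg1 (1.36) were called in the opposite direction. The 12 h interaction crosses the division, so genotype and division cannot be told apart in it.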

How the results depend on the processing

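Of 140 calls of a mitotic gene in 11 comparisons, 46 held under every alternative and left-out array in which the gene was tested and 27 turned direction under at least 1. A gene removed by the 60th-percentile filter was not tested with it and could still count as held. Apart from left-out arrays, the number of calls left its main value by over 1.5 times in these cases: from 2 h to 12 h in wild type (17) it was 10 with the 60th-percentile filter and 9 with the division term. For the 12 h interaction (16) it was 10 with that filter and 9 with the mean of probe sets. The mean of probe sets also gave 6 for the genotypes at 12 h (10) and 4 for the 2 h interaction (7), and the division term gave 9 for the genotypes at 0 h (14). The division term could not be fitted for the interactions.

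Leaving out each array in turn gave 11 to 14 calls for wild type at 2 h (main 15), 18 to 20 at 12 h (19) and 12 to 16 from 2 h to 12 h (17). In cko it gave 9 to 11 at 2 h (12), 10 at 12 h (15) in each case and 6 to 9 from 2 h to 12 h (8). For the genotypes it gave 11 to 14 at 0 h (14), 3 to 5 at 2 h (7) and 6 to 8 at 12 h (10), and for the interactions 3 to 8 at 2 h (7) and 8 to 13 at 12 h (16). The lowest counts of the genotypes at 2 h and 12 h and of both interactions differ from the main ones by over 1.5 times. A group left with 1 array is assumed to vary like the others.

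Directions turned as follows. Quantile normalization gave 0.072 for Bub3 in the genotypes at 12 h and 0.090 in the 12 h interaction. Median scaling gave 0.051 and 0.056 for Bub3 in the same comparisons, 0.072 for Pttg1 in the former and 0.014 for Pttg1 in cko at 2 h. The mean of probe sets gave 0.19 for Cdc20 in wild type at 2 h, -0.50 for Bub3 and -0.10 for Kif11 from 2 h to 12 h in wild type, 0.59 for Bub3 and 0.96 for Pttg1 in cko at 2 h, and -0.10 for Bub3 from 2 h to 12 h in cko. It gave 0.11 for Bub3 and 0.65 for Pttg1 in the genotypes at 12 h, and -0.086 for Aurka, 0.23 for Bub3 and 0.11 for Pttg1 in the 12 h interaction. The division term gave -0.062 for Bub3 in wild type at 2 h. From 2 h to 12 h in wild type it gave 0.59 for Mki67, 0.55 for Birc5, 0.058 for Plk1, -0.28 for Kif11, 0.061 for Kif2c, -0.065 for Tpx2 and 0.41 for Prc1. In cko at 2 h it gave -0.32 for Ccnb2, 0.64 for Tpx2 and 0.81 for Pttg1, and at 12 h -0.084 for Aurkb, -0.45 for Mad2l1, 0.21 for Kif11 and 0.57 for Tpx2. In the genotypes at 12 h it gave -0.23 for Aurkb, -0.30 for Kif2c, 0.15 for Tpx2 and 0.50 for Pttg1. That term is fitted with 1 time effect for both genotypes and 1 genotype effect for all times. The other causes were not tested.

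Replicate numbers did not pair the arrays (0 of 15 correlations of deviations over 0.1). With the replicate block the calls were 14 and 19 in wild type at 2 h and 12 h, 16 from 2 h to 12 h, 13, 14 and 8 in the same comparisons of cko, 13, 6 and 10 for the genotypes at 0, 2 and 12 h, and 7 and 16 for the interactions. Over all genes the division term gave 4708 calls for 2 h in place of 7277 (wild type) and 7684 (cko), and 3061 in place of 6258 for the genotypes at 12 h, and the mean of probe sets gave 1594 in place of 2491 for the 2 h interaction. Median scaling moved the share of higher calls over all genes from 39.4 to 49.3% (2 h, wild type), 61.6 to 50.6% (2 h to 12 h, wild type), 37.8 to 51.1% and 43.9 to 60.6% (cko at 2 h and 12 h), 50.4 to 38% and 41.7 to 58% (genotypes at 0 h and 12 h), and 42 to 56.4% and 43.5 to 64.9% (interactions at 2 h and 12 h). It moved the median over all genes from -0.24 to -0.043 (wild type at 2 h), 0.26 to 0.056 (2 h to 12 h), -0.32 to -0.032 and -0.20 to 0.091 (cko at 2 h and 12 h), -0.17 to 0.043 (genotypes at 12 h) and -0.17 to 0.12 (12 h interaction).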
